A study of Homo sapiens with 6 samples.

Results

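The genes described are 10 that encode the actin filament and proteins bound to it: the tropomyosins TPM1, TPM2, TPM3 and TPM4, the cytoplasmic actins ACTB and ACTG1, the non-muscle α-actinins ACTN1 and ACTN4, and the non-muscle myosin II chains MYL9 and MYH9. They were taken by symbol from a table of 57150 genes, keeping the entry with the highest mean level where a symbol was repeated. TPM4 was chosen by its higher FPKM in the KD-labelled column, so its ratio is given as a description, beside its paralogs and the actins. Of all genes in the table, 13741 had a mean level of at least 1 FPKM (fragments per kilobase of transcript, scaled to sequencing depth), and all 10 genes were among them.

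The study depleted αCP1 and αCP2, the poly(C)-binding proteins encoded by PCBP1 and PCBP2, in K562, a human erythroleukemia cell line. In the KD group, cells were transfected with siRNAs that target both mRNAs, and in the CTRL group with control siRNAs. Each group had 3 libraries, with RNA taken at 72 h, and apart from the siRNA no other treatment was given in the labels. The table holds 1 FPKM and 1 estimated count per gene for each group, so the spread between libraries is not known, no test could be made and every value below stands without replicates.

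Tropomyosins are coiled-coil dimers that lie end to end along the actin filament and influence which myosins, cross-linkers and severing proteins reach it. Each of the genes makes several isoforms through alternative promoters and exons, and in cells outside muscle the different isoforms mark different filament populations, such as stress fibers and the cell cortex. ACTB and ACTG1 encode the β- and γ-actin of those filaments, α-actinins cross-link them, and non-muscle myosin II, with MYH9 as a heavy chain and MYL9 as a regulatory light chain, pulls on them. Many genes of this machinery are transcribed by serum response factor (SRF) with its actin-sensing co-activators of the MRTF family, through a motif called the CArG box.

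The 4 tropomyosins are close enough in sequence that the paralogs can be set side by side, which is why their most alike coding stretch is shown. In GRCh37, the 60 nt lie in coding exons at chr19:16192795-16192854 on the plus strand for TPM4, chr15:63349256-63349315 on the plus strand for TPM1, chr9:35685646-35685705 on the minus strand for TPM2 and chr1:154148593-154148652 on the minus strand for TPM3. Capitals mark bases that differ from TPM4.
TPM4: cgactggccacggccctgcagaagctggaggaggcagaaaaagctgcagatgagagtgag
TPM1: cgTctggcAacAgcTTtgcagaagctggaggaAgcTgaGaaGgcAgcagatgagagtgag
TPM2: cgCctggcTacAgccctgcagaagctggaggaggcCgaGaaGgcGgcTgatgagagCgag
TPM3: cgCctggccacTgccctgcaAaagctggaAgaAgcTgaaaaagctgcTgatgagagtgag
Even here TPM1 differed from TPM4 at 10 bases, TPM2 at 9 and TPM3 at 7. Over the aligned coding sequence, TPM4 was identical to TPM1 at 73.1% of bases, to TPM2 at 74.6% and to TPM3 at 73.2%, whereas TPM1, TPM2 and TPM3 were 79.0% to 80.2% identical to one another. The longest identical run between any pair was 38 nt.

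The cytoplasmic actins are far closer, and the start of their coding sequence is shown because it holds residues that tell β- from γ-actin. The stretches lie at chr7:5569229-5569288 for ACTB and chr17:79479321-79479380 for ACTG1, both on the minus strand of GRCh37. Capitals mark bases that differ from ACTB.
ACTB: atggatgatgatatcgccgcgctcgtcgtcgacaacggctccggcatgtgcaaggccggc
ACTG1: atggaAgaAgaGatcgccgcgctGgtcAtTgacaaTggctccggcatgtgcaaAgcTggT
The pair differed at 10 of these 60 bases, and 1027 of 1125 coding bases (91.3%) were identical, with a longest identical run of 59 nt. Of the 100-nt stretches in the protein-coding transcripts of each gene, the share also found in another gene's transcripts was 0.068% for ACTB and 0 of 3736 for ACTG1. Among the tropomyosins this share was 0 of 2606 for TPM2, 2.21% for TPM3, 5.44% for TPM4 and 27.3% for TPM1, the last mostly with the antisense gene TPM1-AS. The library kit does not mark strand, so reads of TPM1 and TPM1-AS cannot be told apart.

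The columns are named by their labels because the targeted mRNAs did not check them. PCBP1 had 184 FPKM in the KD-labelled column and 188 in the CTRL-labelled column, and PCBP2 had 531 and 342. PCBP2 was thus higher in the KD-labelled column, by 0.63 on the log2 scale, and PCBP1 differed by -0.03. The study reports depletion from its own measurements of mRNA and protein, which were not analysed here. The estimated counts summed to 13699340 in the KD-labelled column and 11680567 in the CTRL-labelled column. The paper reports more mapped read pairs than this for each single library, so these sums are not the sequencing depth. How the estimates were scaled is not given. Of 12 erythroid and hematopoietic markers, 8 were at 0 in both columns, GATA1, TAL1 and KLF1 included, and the list summed to 4.32 and 6.51 FPKM, most of it from EPOR (3.55 and 5.08). In contrast, 6 epithelial markers summed to 4358 and 3174 FPKM, with KRT18 at 2309 and 1748 and KRT8 at 1505 and 819. KRT7 ran the other way, at 539.5 and 604 FPKM. Outside the keratins the list was low, with EPCAM at 3.94 and 3.26 FPKM and the cadherin CDH1 at 0.363 and 0.426, and KRT19 was at 0. Of 7 fibroblast markers, VIM held nearly all the signal, at 688 of a summed 699.8 FPKM and 545 of 554. The part of these levels in the results below was not tested.

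TPM4 (ENSG00000167460; GRCh37 chromosome 19, 16177831 to 16213812, plus strand) was the gene with the widest gap. Its level was 376 FPKM in the KD-labelled column and 76.8 in the CTRL-labelled column, a 4.90-fold difference and a log2 ratio of 2.28 after adding 1 FPKM to each value. The counts behind these levels were 10622 and 2064. Taken as shares of the column totals, the counts gave a log2 ratio of 2.13, with a 95% interval of 2.07 to 2.20. This exact binomial interval takes the estimated counts as raw counts. It covers at most counting error and not the spread between libraries. The ratio ranked 90 among the 13741 genes, at a percentile of 99.4. The RNA came from bulk cultures, in which a smaller part of cells with a transcript and less of it per cell cannot be told apart. Of the 554 genes at least as abundant as TPM4, 12 had a ratio as high, TPM4 included.

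TPM2 (ENSG00000198467; chromosome 9, 35681989 to 35690053, minus strand), which encodes the β-tropomyosin of muscle and of stress fibers, was also higher in the KD-labelled column. It had 352 FPKM there and 119 in the CTRL-labelled column, a log2 ratio of 1.56, from counts of 4763 and 1679. The share ratio from the counts was 1.27 (1.19 to 1.36), below the FPKM ratio and above a log2 ratio of 1. The ratio was at a percentile of 97.3 among all genes.

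TPM1 and TPM3 did not follow their paralogs. TPM3 (ENSG00000143549; chromosome 1, 154127784 to 154167124, minus strand) had 405 FPKM and 383 FPKM in the KD- and CTRL-labelled columns, a log2 ratio of 0.08, with counts of 9363 and 8795. TPM1 (ENSG00000140416; chromosome 15, 63334819 to 63364114, plus strand) had 173 and 163 FPKM, a log2 ratio of 0.08, with estimated counts of 3031 and 2742. Both ratios turned below 0 when counts were divided by the column totals, to -0.14 (-0.18 to -0.10) for TPM3 and -0.09 (-0.16 to -0.01) for TPM1, and lay above 0 again, at 0.07 and 0.12, once the median of all genes was subtracted. The direction for these genes thus depends on the scaling, while TPM4 and TPM2 were above a log2 ratio of 1 under each scaling tried.

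The tropomyosin transcripts as a family summed to 1307 FPKM in the KD-labelled column and 742 in the CTRL-labelled column, a 1.76-fold difference. Of the 565 FPKM between the sums, TPM4 made up 53.0%, TPM2 41.3%, and TPM1 with TPM3 5.74%. TPM4 was the lowest of the family in the CTRL-labelled column, at 10.4% of its FPKM, and held 28.8% in the KD-labelled column. TPM2 went from 16.1% to 27.0%. TPM3, the leading tropomyosin in both columns, made up 51.6% in the CTRL-labelled column and 31.0% in the KD-labelled column, at nearly the same FPKM, and TPM1 22.0% and 13.2%. For each FPKM of TPM3 there was 0.201 FPKM of TPM4 in the CTRL-labelled column and 0.928 in the KD-labelled column. By counts, which are not divided by length, TPM4 was the leading member in the KD-labelled column with 38.2% of the family, against 13.5% in the CTRL-labelled column.

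**Figure D1:**
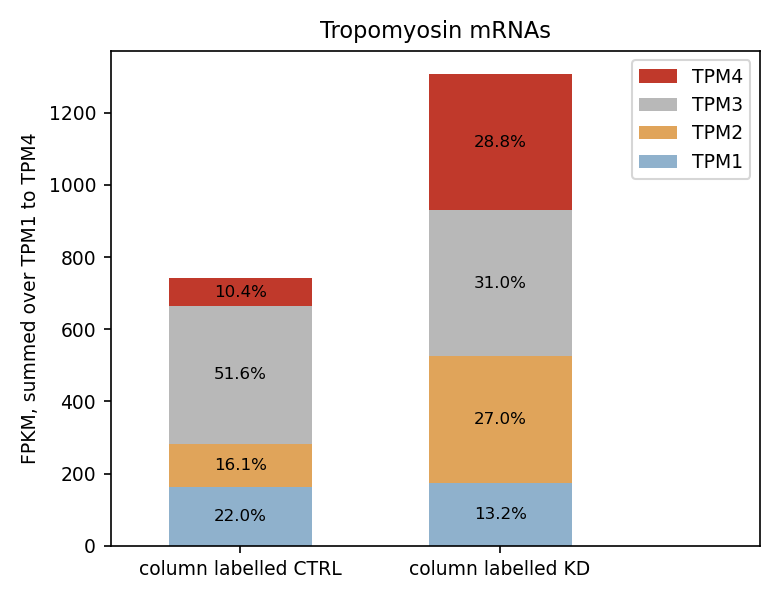
FPKM of the 4 tropomyosin genes stacked to the family sum in the CTRL- and KD-labelled columns, with each gene's percent of the sum printed in its bar; each bar is 1 deposited value per gene, with no replicates. The TPM3 and TPM1 segments have nearly the same height in both bars, and the sum goes from 742 to 1307 FPKM through the TPM4 and TPM2 segments.

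The cytoplasmic actins were the most abundant of the genes and differed less between the columns. ACTB (ENSG00000075624; chromosome 7, 5566040 to 5603533, minus strand) had 9242 FPKM in the KD-labelled column and 6738 in the CTRL-labelled column, a log2 ratio of 0.46. ACTG1 (ENSG00000184009; chromosome 17, 79476439 to 79490873, minus strand) had 1868 and 1215 FPKM, a log2 ratio of 0.62. The share ratios from the counts were 0.26 (0.25 to 0.28) and 0.39 (0.37 to 0.41). Together the actins summed to 11111 and 7953 FPKM, a 1.40-fold difference, which was smaller than that of the tropomyosin sum. There were 11.8 FPKM of tropomyosin transcripts per 100 FPKM of actin transcripts in the KD-labelled column and 9.33 in the CTRL-labelled column. The balance of β- to γ-actin transcripts was 4.95 and 5.55 ACTB per ACTG1.

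Processed copies of these genes took few reads. The 10 ACTB pseudogenes in the table held 0.0028% of the ACTB count in the KD-labelled column and 0.0013% in the CTRL-labelled column, and 7 of them were at 0 in both. The 8 ACTG1 pseudogenes held 0.051% and 0.073% of their parent's count. The 8 TPM3 pseudogenes held 1.19% and 1.08%, of which TPM3P9 had 4.14 and 2.52 FPKM. How multiply mapping reads were shared between parent and copy is not given in the sources used here.

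Of the muscle actins, ACTA2, the smooth muscle α-actin, had 16.5 FPKM in the KD-labelled column and 3.31 in the CTRL-labelled column, a log2 ratio of 2.02 on counts of 264 and 50. The other 3 muscle actins had a mean under 1 FPKM, with ACTC1 at 1.43 and 0.361. Of the 100-nt stretches of ACTA2, 33.9% were shared with other genes' transcripts, so its reads are uncertain. The list of 8 smooth muscle markers, to which ACTA2 belongs, summed to 43.2 and 23.3 FPKM. SMTN, a smooth muscle cytoskeletal gene, had 11.1 and 3.83, TAGLN had 14.5 and 15.1, MYH11 was under 1 in both columns and CNN1 was at 0. The 12 striated muscle markers summed to 8.32 and 7.61 FPKM, and 5 of them, the creatine kinase CKM and the heavy chain MYH7 included, were at 0 in both columns.

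**Figure D2:**
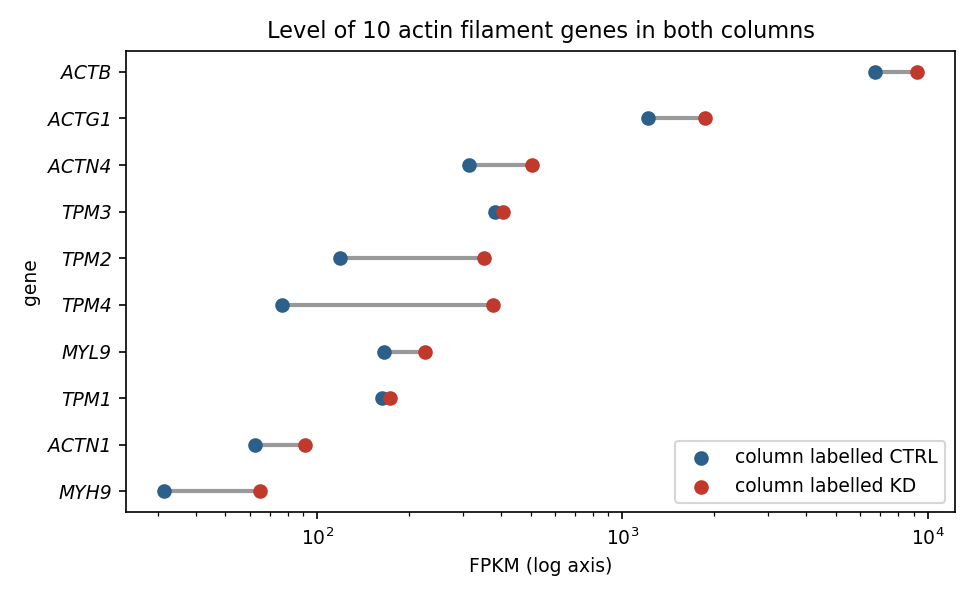
FPKM on a log axis of the 10 genes, ordered by mean level, with 1 point for the CTRL-labelled column and 1 for the KD-labelled column joined by a line; no error is drawn because each point is a single deposited value. The KD point lies to the right for each of the 10 genes, with the longest lines for TPM4 (76.8 to 376) and TPM2 (119 to 352) and overlapping points for TPM3 and TPM1.

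The order of levels moved with the tropomyosins. In the CTRL-labelled column the order was ACTB, ACTG1, TPM3, ACTN4, MYL9, TPM1, TPM2, TPM4, ACTN1 and MYH9. In the KD-labelled column, ACTN4 stood above TPM3, and TPM4 and TPM2 followed them, above MYL9 and TPM1. Neighbours such as MYL9 and TPM1 in the CTRL-labelled column (166 and 163 FPKM) or TPM4 and TPM2 in the KD-labelled column (376 and 352) cannot be ranked, since the spread between libraries is not known.

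The α-actinins, which bundle antiparallel filaments, were both higher by FPKM in the KD-labelled column. ACTN4 (ENSG00000130402; chromosome 19, 39138289 to 39222229, plus strand) had 506 and 313 FPKM, a log2 ratio of 0.69, and a share ratio from the counts of 0.39 (0.35 to 0.42). ACTN1 (ENSG00000072110; chromosome 14, 69340845 to 69446157, minus strand) had 91.3 and 62.6 FPKM, a log2 ratio of 0.54. Its estimated counts were 3094 and 2829, and the share ratio was -0.10 (-0.17 to -0.03), so its direction turned with the measure. The gap between its FPKM ratio and its count ratio was 0.64, against a median gap of 0.22 over all genes, a percentile of 94.7. Which isoforms carried the ACTN1 and tropomyosin reads is not given by the table, which has 1 value per gene, and their part in this gap was not tested. Of the 100-nt stretches of ACTN4, 11.6% were shared with another gene, mostly CAPN12. ACTN2 and ACTN3, the muscle α-actinins, did not reach 1 FPKM.

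Of the non-muscle myosin II chains, MYH9 (ENSG00000100345; chromosome 22, 36677326 to 36784055, minus strand) had 64.8 FPKM in the KD-labelled column and 31.5 in the CTRL-labelled column, a log2 ratio of 1.02 on counts of 5854 and 2784. This was just past a log2 ratio of 1, and the share ratio from the counts, 0.84 (0.78 to 0.91), was below it. MYH9 made up 97.6% and 94.3% of the FPKM of the 3 non-muscle heavy chains, with MYH10 at 1.30 and 1.78 FPKM. MYL9 (ENSG00000101335; chromosome 20, 35169900 to 35179850, plus strand) had 226 and 166 FPKM, a log2 ratio of 0.44, and a share ratio of 0.27 (0.18 to 0.35). The locus that the table gives for MYL9 spans 380362 bp, whereas the gene is 9951 bp long in GENCODE release 44, and whether reads of neighbouring genes enter its value was not tested. MYL9 made up 16.7% and 13.3% of the regulatory light chain FPKM, the rest being MYL12A (624 and 554) and MYL12B (504 and 527). The light chain to heavy chain balance was 3.49 and 5.27 FPKM of MYL9 per FPKM of MYH9. MYL6, the most abundant of the listed myosin II chains, had 3235 and 2933 FPKM, a log2 ratio of 0.14.

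Counted together, 3 of the 10 genes (TPM4, TPM2 and MYH9) had a log2 FPKM ratio of 1 or more, where 8.51% of all genes did, and none had a ratio of -1 or less, where 3.27% did. The median of the 10 was 0.58, against 0.01 over all genes. By shares of counts, 2 of the 10 (TPM4 and TPM2) were at 1 or more beside 6.92% of all genes, and none at -1 or less beside 9.83%. Changing from FPKM to count shares moved the median of all genes from 0.01 to -0.21 and the part of past-threshold genes that were higher in the KD-labelled column from 72.2% to 41.3%. The number of the 10 genes above 0 was 10 by FPKM, where 51.1% of all genes were, and 7 by counts, with TPM1, TPM3 and ACTN1 below. Each of the 10 lay above the median of all genes by either measure. As TPM4 was chosen for its ratio and the others as its family and partners with earlier results known, these counts describe the genes and test nothing.

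**Figure D3:**
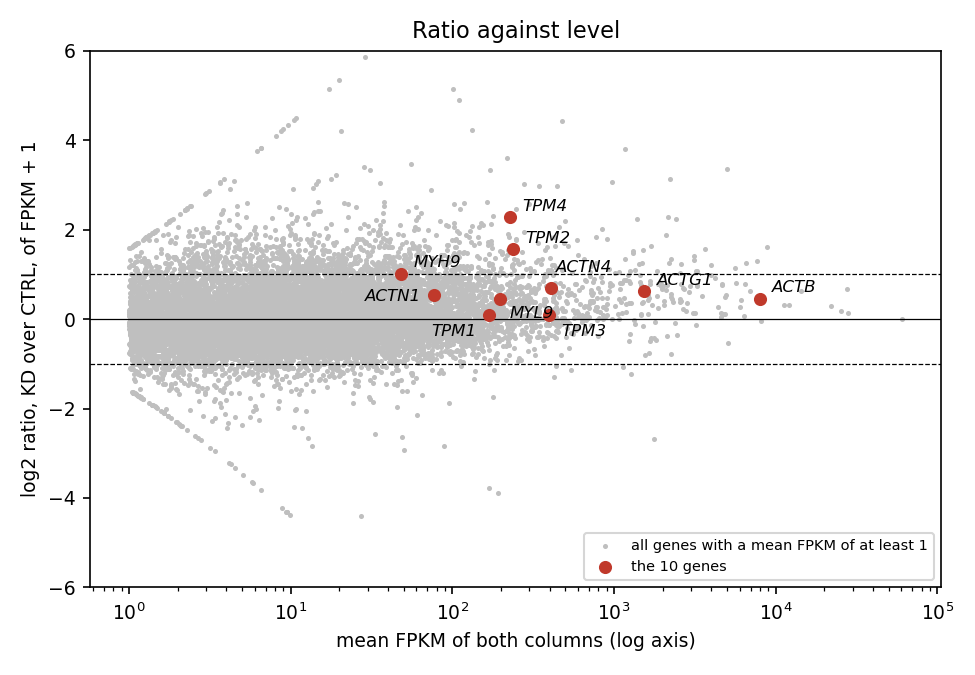
Log2 ratio of FPKM + 1, KD-labelled over CTRL-labelled column, against the mean FPKM of both columns on a log axis for the 13741 genes with a mean of at least 1 (gray) and the 10 genes (red, named); dashed lines stand at 1 and -1, and 4 genes lie beyond the axis. TPM4 (2.28) and TPM2 (1.56) lie above the upper line at over 200 FPKM, MYH9 (1.02) on it, and the rest between 0 and 0.69.

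The GC content of a gene's mRNA moved with its ratio across the table. From the lowest to the highest quartile of genes by GC content, the median log2 ratio was -0.24, -0.13, 0.09 and 0.47, and of the 10 genes none fell in the lowest quartile, 3 in the next, 2 in the third and 5 in the highest. TPM4, TPM1 and TPM3 were the 3 genes of the second quartile, at 46.7%, 45.9% and 44.3% GC. Within its quartile TPM4 was at a percentile of 99.8, and TPM2, at 57.7% GC in the highest quartile, was at a percentile of 93.4. In that quartile ACTB and MYL9 were at percentiles of 49.0 and 47.9, near the middle of genes of like composition, and MYH9 was at 80.0. After a trend in GC and length was taken out, the ratios were 2.34 for TPM4, 1.19 for TPM2, 0.73 for MYH9, 0.45 for ACTG1, 0.36 for ACTN4, 0.33 for ACTN1, 0.27 for TPM3, 0.19 for TPM1, 0.17 for ACTB and -0.01 for MYL9. TPM4 and TPM2 were then the genes past a ratio of 1. What sets the trend with GC content was not tested.

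**Figure D4:**
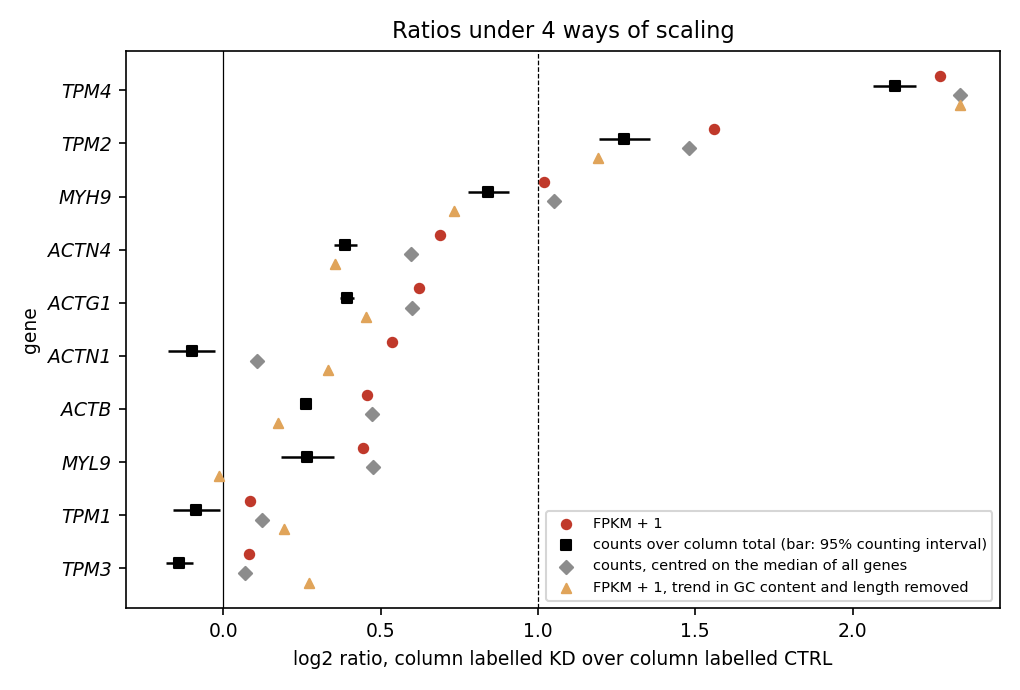
Log2 ratio of each of the 10 genes, KD-labelled over CTRL-labelled column, from FPKM + 1 (circles), from counts over the column total with its 95% counting interval (squares with bars), from those counts centred on the median of all genes (diamonds), and from FPKM after the GC and length trend was taken out (triangles); lines stand at 0 and 1. TPM4 (2.13 to 2.34) and TPM2 (1.19 to 1.56) stay right of 1 throughout, MYH9 lies on both sides of 1, and TPM1, TPM3, ACTN1 and MYL9 each have 1 marker left of 0.

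The genes nearest to TPM4 in both columns, by Euclidean distance over log2(FPKM + 1), were NDUFA11, FXYD5 and COPE. NDUFA11, a subunit of respiratory complex I, had 418 and 75.1 FPKM, at a distance of 0.15. FXYD5, a regulator of the sodium pump, had 347 and 92.2 FPKM at a distance of 0.29, and COPE, a subunit of the COPI vesicle coat, had 351 and 96.9 FPKM at 0.35. The likeness rests on 1 value per column, and no actin filament gene was among these 3.

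The CArG box was searched on both strands in the promoters that RefSeq gives for these genes (GRCh38.p14, 250 bases before the start site to 50 after it), because SRF acts on several of them. The tables held 16 promoters for 8 of the 10 genes, all but ACTB and MYL9. A CArG box lay in 3 of the 16 and in 1.29% of all 35116 promoters. It was at position -173 from 1 of several TPM4 starts, -94 in ACTG1 and -171 from 1 of several ACTN1 starts. The other TPM4 and ACTN1 windows held none, and which start was used is not known from 1 value per gene. The windows are chr19:16067288-16067587 on the plus strand for TPM4, chr17:81512750-81513049 on the minus strand for ACTG1 and chr14:68977517-68977816 on the minus strand for ACTN1, with the box in capitals.
TPM4: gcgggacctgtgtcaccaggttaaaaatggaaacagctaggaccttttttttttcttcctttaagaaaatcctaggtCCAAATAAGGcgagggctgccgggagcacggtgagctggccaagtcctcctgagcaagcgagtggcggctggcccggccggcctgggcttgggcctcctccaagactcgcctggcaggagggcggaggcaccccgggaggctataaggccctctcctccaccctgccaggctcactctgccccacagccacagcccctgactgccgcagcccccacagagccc
ACTG1: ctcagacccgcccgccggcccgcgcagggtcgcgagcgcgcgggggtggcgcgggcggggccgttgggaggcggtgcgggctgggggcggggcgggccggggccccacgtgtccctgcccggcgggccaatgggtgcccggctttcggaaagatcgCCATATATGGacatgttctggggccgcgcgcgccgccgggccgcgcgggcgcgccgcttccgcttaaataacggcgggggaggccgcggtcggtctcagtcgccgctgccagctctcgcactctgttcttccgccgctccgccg
ACTN1: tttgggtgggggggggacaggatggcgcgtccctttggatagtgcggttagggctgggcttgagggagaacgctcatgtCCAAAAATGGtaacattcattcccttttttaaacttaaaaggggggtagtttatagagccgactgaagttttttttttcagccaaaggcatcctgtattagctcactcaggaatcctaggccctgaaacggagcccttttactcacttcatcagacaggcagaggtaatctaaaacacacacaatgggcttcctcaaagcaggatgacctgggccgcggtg
These genes differed in their ratios (2.28, 0.62 and 0.54), and no CArG box was found in the windows of TPM2 or MYH9, which had ratios of 1.56 and 1.02. The part of SRF in these ratios was not tested. GGGCGG, which may overlap other GC-rich motifs, was in 13 of the 16 and 45% of all promoters, CCAAT in 3 and 34.6%, and TATAAA in 1 and 11.5%. A match is a run of letters and not a measured site.

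In the wider actin machinery, the share of genes past a log2 FPKM ratio of 1 or -1 was near that of all genes. Over 12 lists of cytoskeletal genes, which hold 109 genes with the 10 included, 90 had a mean of at least 1 FPKM, with 8 of these (8.89%) at a log2 ratio of at least 1 and 2 (2.22%) at -1 or less. Without the 10 genes the numbers were 5 of 80 (6.25%) and 2 of 80 (2.5%), with a median of -0.04, beside 8.51%, 3.27% and 0.01 for all genes. By count shares the balance was different: 7 of the 90 were at 1 or more and 6 at -1 or less, and without the 10 genes 5 and 6 of the 80, beside 6.92% and 9.83% of all genes.

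Lists of proteins that act at filament ends and on monomers had medians below 0 by FPKM, with members on both sides. Over all genes, 8.51% had a ratio of 1 or more and 3.27% of -1 or less. A short list with none past either is thus not set apart from all genes. The Arp2/3 complex, which branches filaments, had a median of -0.07 over 9 subunits, none past 1 or -1 by FPKM, with ARPC1B at 347 and 242 FPKM (0.52), ARPC4 at 194 and 127 (0.60) and ARPC3 at 235 and 239 (-0.02). By count shares 1 subunit, ACTR3, was past -1. The 12 monomer-binding and disassembly proteins had a median of -0.14, and of 0.0039 after the GC and length trend was taken out. The thymosins in that list moved apart, with TMSB10 at 6984 and 5165 FPKM and TMSB4X at 1519 and 2042, and CFL1, the filament-severing cofilin, had 1935 and 1331 FPKM (0.54). The 8 capping and severing proteins that passed 1 FPKM had a median of -0.24, with FLII at 294 and 276 FPKM and CAPG at 141 and 139.7, and GSN, gelsolin, at 119.5 and 66.8 (0.83). Of the 8 tropomodulins and pointed-end proteins, 3 passed 1 FPKM, with a median of -0.39 and none past 1 or -1. Among them TMOD3, a tropomodulin that caps the pointed end together with tropomyosin, had 31.9 and 42.0 FPKM, a log2 ratio of -0.39. CALD1, caldesmon, which binds tropomyosin on the filament, had 120.5 and 94.5 FPKM, a log2 ratio of 0.35.

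Proteins that bundle filaments were spread on both sides. Of 12 crosslinkers and bundlers past 1 FPKM, FSCN1, the fascin of filopodia, had 245.7 and 104 FPKM, a log2 ratio of 1.23, and PLS3, a plastin, had 49.8 and 115 FPKM, a ratio of -1.20, with a list median of 0.07. The most abundant of them, FLNA, which cross-links filaments at the cortex, had 929 and 878 FPKM, and TAGLN2 had 839 and 639. Of 11 nucleation promoters and formins, FMNL1 had 24.2 and 9.77 FPKM, a ratio of 1.23, and DAAM1 2.94 and 7.08, a ratio of -1.04, with a median of 0.05. With the GC and length trend taken out, FSCN1, PLS3, FMNL1 and DAAM1 were at 0.51, -0.98, 0.66 and -0.78, none past 1 or -1. DIAPH1 had 142 and 86.0 FPKM and CTTN 96.4 and 51.8. None of the 12 contractility regulators with a mean of at least 1 FPKM had a ratio past 1 or -1. Of all genes, 8.51% were at 1 or more and 3.27% at -1 or less. The median of these regulators was -0.21, with RHOA at 427 and 458 FPKM and RHOC at 428 and 376.

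The SRF and MRTF list had a median of 0.56 over 9 genes by FPKM, and 2 of them, ZYX at 181 and 64.8 FPKM (1.47) and CYR61 at 211 and 81.3 (1.36), were past 1. ZYX encodes zyxin of focal adhesions, and CYR61 a secreted matrix protein. FHL2, the most abundant, had 166 and 188 FPKM, a ratio of -0.18, and SRF itself had 19.4 and 12.4. After the GC and length trend was taken out, the median of this list was 0.07. ZYX was then at 0.81 and CYR61 at 1.31.

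**Figure D5:**
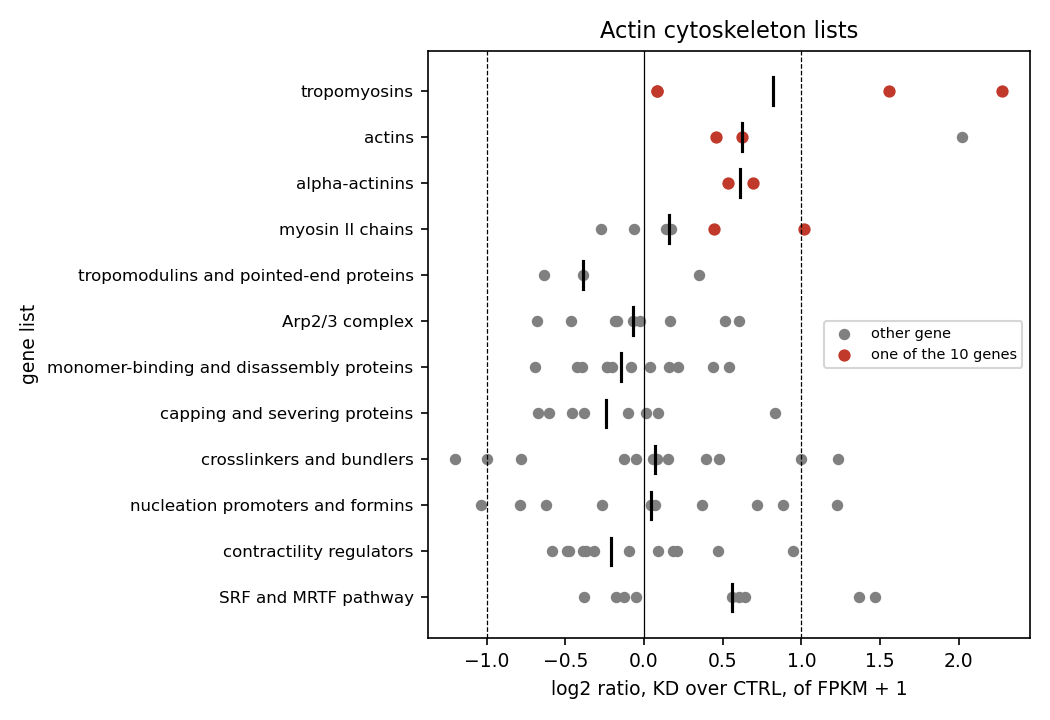
Log2 ratio of FPKM + 1, KD-labelled over CTRL-labelled column, of each gene with a mean of at least 1 FPKM in 12 cytoskeletal lists (points, with the 10 genes in red) and the median of each list (vertical bar); dashed lines stand at 1 and -1. The medians run from -0.39 for tropomodulins and pointed-end proteins to 0.82 for tropomyosins, and TPM4 is the rightmost point.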

How the data were processed

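RNA-seq libraries of K562 cells, 3 per group, were made by the authors with the TruSeq RNA Sample Preparation Kit V1. Reads were mapped by the authors to hg19 and Ensembl transcripts with TopHat 1.4.1, and the FPKM values in the deposited table were calculated by the authors with Cuffdiff 2.2.0. The deposited table also gives estimated counts, which need not be whole. The way libraries were merged into 1 column is not given in the sources used here. The deposited columns of p-values, FDR and fold changes hold the authors' own comparison, and they and 2 columns of group averages were not used.

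FPKM ratios were put on a log2 scale after a pseudocount of 1 was added, and genes were kept at a mean FPKM of at least 1. Ratios of counts were computed as shares of the column totals of 13699340 and 11680567 (0.5 added to each count), with 95% exact binomial intervals. These intervals take the estimated counts as raw counts and cover at most counting error. A log2 ratio of 1 or -1 was the threshold of size. With 1 value per gene and group, no test across libraries could be run. The 10 genes and the lists were chosen with earlier results of these data known. Named genes were the 10 genes, the targeted genes, the 3 nearest to TPM4 and pseudogenes of ACTB, ACTG1 and TPM3. In each of 17 lists, the 2 with the highest mean FPKM and those past the threshold, at most 4 a list, were also to be named. Of these, the markers NFE2, MB, TNNT2 and FN1 are not described above. ACTC1, ACTN2, ACTN3, ACTR3, ARPC4, CFL1, GSN, MYH10, MYL12B, SRF and single markers were named after their values were seen.

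Coordinates, coding sequences and the length and GC content of the longest protein-coding transcript came from GENCODE release 44 on GRCh37, and 13298 of the 13741 genes (96.8%) had both. Promoters came from RefSeq (GRCh38.p14). The functions were tested on simulated data. Alternatives were a pseudocount of 0.1, other filters, centring, count shares, the sum of repeated symbols, and ratios after a second-degree fit in GC and log2 length was subtracted. The percentile within a quartile of genes by GC content and the use of the longest transcript of any kind were added after seeing the data. The fit in GC and length was planned, but the protein-coding transcript was chosen for it after the values of both were seen. Analyses used pandas 2.3.3 and scipy 1.17.1 in Python 3.11.15, and plots used matplotlib 3.10.9. Splicing was not analysed here.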

Additional observations from a re-analysis of the deposited data

How the results depend on the processing

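With 1 value per gene and group, the limit of each result is that the spread between libraries is not known, and the counting intervals do not cover it. No paired analysis was possible because each group has a single column, and leaving out a library could not be run for the same reason. The absence of a filter, the filter of 5 FPKM and the sum of repeated symbols could not change the ratio of TPM4, and under the other 5 alternatives and the 1 added after seeing the data it was above 2. Its ratio of 2.28 was 2.13 with counts divided by the column total, and 2.35 with the GC trend taken over the longest transcript of any kind, both further from 2.28 than the counting interval is wide on 1 side, while the trend over the longest protein-coding transcript gave 2.34. The choice of the protein-coding transcript was made after the values of both were seen. The TPM4 share of tropomyosin FPKM, 28.8% and 10.4% in the KD- and CTRL-labelled columns, was 38.2% and 13.5% by counts, which are not divided by length. The number of the 10 genes at 1 or more was 3 under 5 of the FPKM settings and the centred counts and 2 (TPM4 and TPM2) under count shares and under either removal of the trend, and none was at -1 or less under any setting. Of the 9 other genes, 6 were above 0 by count shares and 8 with the trend removed. Over all genes, the numbers at 1 or more and -1 or less went from 1169 and 450 to 1549 and 791 with a pseudocount of 0.1, to 1277 and 584 with no filter, and to 661 and 478 with the trend removed.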

Other observations

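Protein-coding genes with a mean of at least 1 FPKM on each side of TPM4 on chromosome 19 were taken by position. This was done after the TPM4 value was known, and some of the genes lay far off. Of 6 of them, FAM32A, 82379 bp away, had 96.2 FPKM in the KD-labelled column and 42.7 in the CTRL-labelled column, a log2 ratio of 1.15. AKAP8L, 647879 bp away, had 74.4 and 35.1, a ratio of 1.06. RAB8A, a vesicle traffic GTPase gene 8887 bp from TPM4, had 25.9 and 29.0 FPKM, a ratio of -0.16. The rest, AKAP8, WIZ and AP1M1, had ratios of 0.31, 0.89 and 0.92, at distances of 687205, 617064 and 94853 bp. After the GC and length trend was taken out, the 6 ratios ran from -0.26 for RAB8A to 1.06 for AP1M1, all below the 2.34 of TPM4.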
